A study of Microtus ochrogaster with 23 samples.

Results

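Colq encodes the collagen-like tail of acetylcholinesterase, and the data here were the methylation levels of cytosines in and around this gene in the dentate gyrus (DG) of prairie voles (Microtus ochrogaster). Members were all listed cytosines on chromosome 6 between positions 60567214 and 60645289, which is the annotated gene of the MicOch1.0 assembly (60572214 to 60640289, 68076 bp, gene ID 101984266) with 5 kb added on either side. The rule found 64 cytosines of the 4051749 with reads in at least 1 library. The animals were wild-type (WT) voles in 4 groups. “Attacker” (6 males) and “Parental” (6 males) were virgins that had been sorted by whether they attacked or cared for an unfamiliar pup. “Father” (5 males) and “Mother” (6 females) were pair-bonded and living with their own litter when they met the pup. Each library came from tissue punches of 1 animal, so cell types of the DG were mixed, and the DNA was sequenced by reduced-representation bisulfite sequencing (RRBS). Colq was chosen because of a CpG that differed between “Attacker” and “Parental” voles, so every value of that comparison is given as a description, with no test.

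The product of Colq forms the tail that ties the catalytic subunits of acetylcholinesterase to the extracellular matrix. It is best known from the neuromuscular junction, where it binds perlecan and the receptor kinase MuSK in the synaptic basal lamina, and loss of it in people gives a congenital myasthenic syndrome. In brain, most acetylcholinesterase is held instead at the cell surface by a membrane anchor encoded by Prima1, and the DG is a target of cholinergic fibres from the septum. CpG methylation is a covalent mark on cytosine that is dense in the bodies of most genes and usually absent from active CpG-rich promoters. RRBS cuts the genome with MspI, whose site holds a CpG, and reads the cytosines at the fragment ends, so only cytosines near such sites are seen.

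Coverage of Colq was thin. Of the 64 cytosines, 59 lay within the annotated gene, 5 lay below its first base and 0 above its last base. Of these, 13 had reads in 1 animal only, 38 in 2 to 9 animals and 13 in 10 or more animals. The most widely read cytosine had reads in 16 of the 23 animals, and 0 had reads in all of them, whereas 21.05% of the whole table did. The median number of animals was 3.5 per Colq cytosine and 10 per cytosine of the table. Together the window held 4195 reads in 310 animal values, where an animal value is the level (methylated reads over all reads) of 1 cytosine in 1 animal. Of these values, 196 were at 100%, 91 were at 0% and 23 lay between. Reads carry no molecular identifiers, so intervals and limits given here cover counting error only. Per library, the whole table held 64896224 to 129376223 calls (median 82602291), and the libraries read between 1906188 and 2238948 cytosines each.

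**Figure D1:**
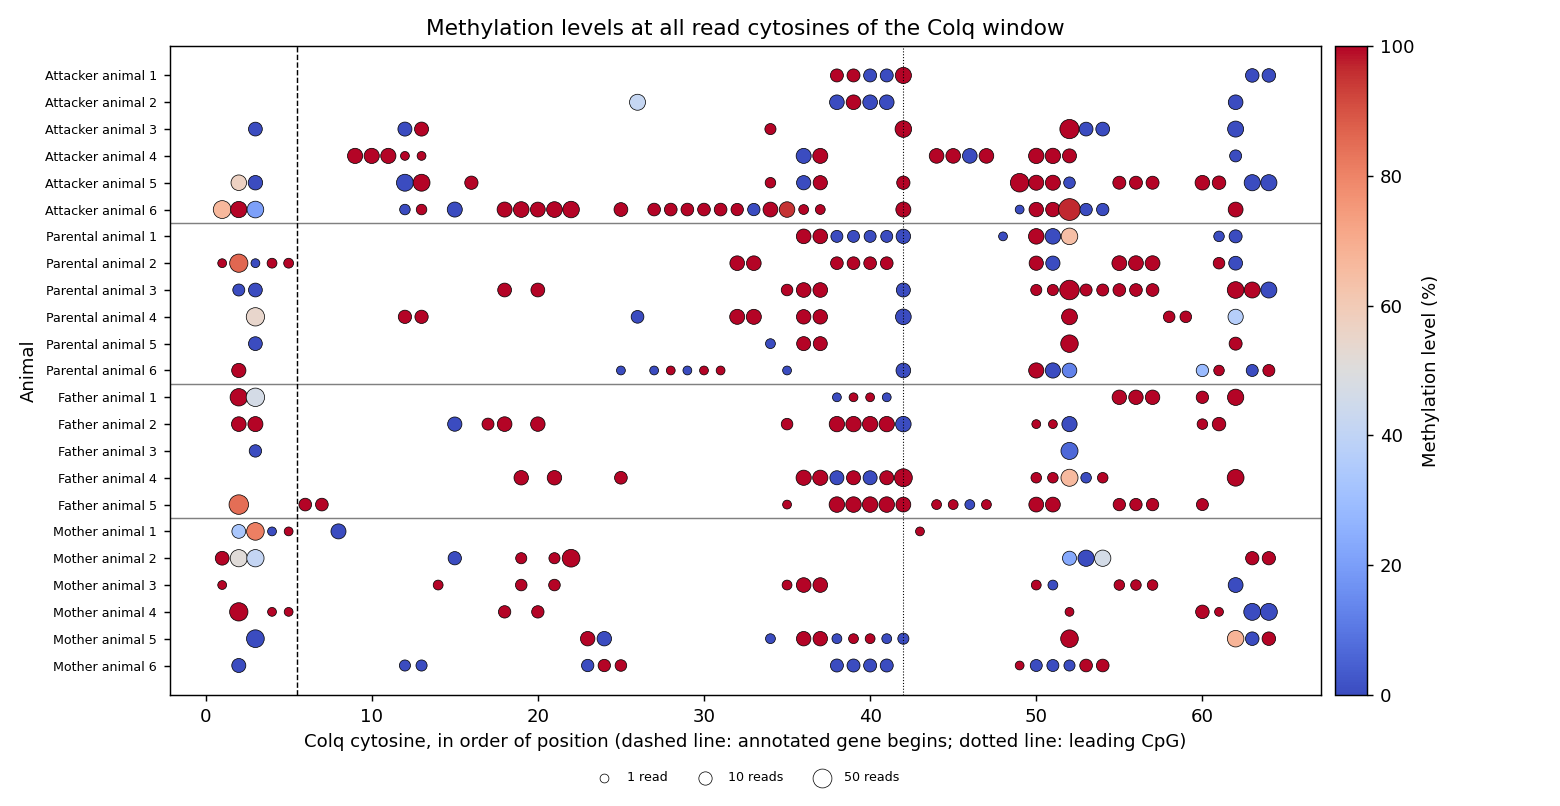
The map places the 64 Colq cytosines in order of position on the horizontal axis and the 23 animals on the vertical axis, with a circle for each animal value, sized by its reads and coloured by its level from 0 to 100%. Most circles are fully methylated or fully unmethylated (196 at 100%, 91 at 0%), and many positions are empty. The dotted line marks 60606886, the leading CpG, where the “Attacker” and “Parental” circles differ in colour, as they also do at some cytosines read in fewer animals.

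The leading CpG lay inside the gene at position 60606886, 34.7 kb from the first annotated base. It had reads in 12 animals. Among “Attacker” voles, animal 1 had 25 of 25 reads methylated, animal 3 had 28 of 28, animal 5 had 10 of 10 and animal 6 had 18 of 18. Among “Parental” voles, animal 1 had 0 of 15 reads methylated, animal 3 had 0 of 13, animal 4 had 0 of 22 and animal 6 had 0 of 16. The groups did not overlap, and no animal of either group was at an intermediate level. Summed over the 4 “Attacker” animals read, 81 methylated reads of 81 give a lower Wilson 95% bound of 95.5%. Over the 4 “Parental” animals read, the count of 0 in 66 reads allows a level of up to 4.55% (3 counts over the reads). These are different kinds of limit, and both treat the reads of different animals as independent. They describe the summed reads only and set no bound on the level of either group, where the animals are the replicates. The other 2 animals of each group had no read here, so their level is unknown.

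“Father” voles held both states at this CpG. Animal 2 had 0 of 21 reads methylated, animal 4 had 40 of 40 and animal 5 had 17 of 17, which gave a mean of 66.7% ± 57.7 (SD, n = 3). The only “Mother” vole with reads, animal 5, had 0 of 4, which allows a level of up to 75%. In order of mean level the groups ran from “Attacker” through “Father” to “Parental” and “Mother” at 0%, and the “Father” animals overlapped with each of the others. “Father” vs “Mother” is the only comparison that shares no animal with the choice of this CpG. The difference there was 66.7 percentage points (3 animals against 1). Each of the 4 ways to choose the lone animal gives a difference of that size, so the exact two-sided permutation p was fixed at 1 and these animals give no test of fathers against mothers.

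**Figure D2:**
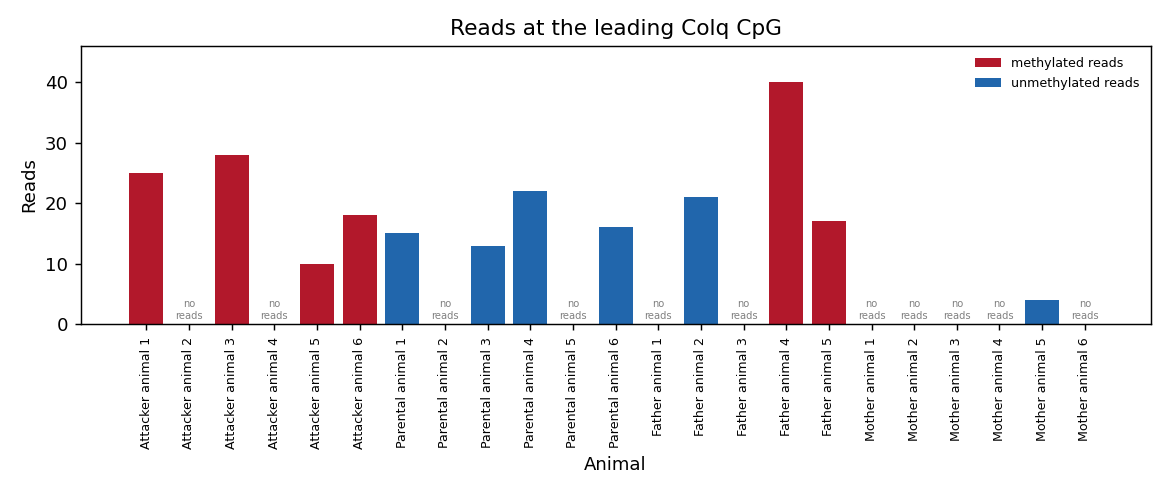
Bars show the reads at the leading Colq CpG (vertical axis, number of reads) in each of the 23 animals (horizontal axis), split into methylated and unmethylated reads. Every bar has 1 colour: 4 “Attacker” and 2 “Father” animals had methylated reads only, and 4 “Parental” animals, 1 “Father” and 1 “Mother” had unmethylated reads only.

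No listed cytosine lay within 100 bp of the leading CpG and the cytosine on its other strand was not listed. The nearest was 169 bp away, at the end of a run of 4 cytosines within 50 bp (60606668, 60606676, 60606685 and 60606717). This run had reads in 10 animals, each of which had the same number of reads at all 4 cytosines and was at 0% or 100% at each of them. “Parental” animal 2 (8 reads), “Father” animal 2 (20 reads) and “Father” animal 5 (21 reads) were methylated at all 4. “Parental” animal 1 (6 reads) and “Mother” animal 6 (9 reads) were unmethylated at all 4. The other 5 animals changed state from cytosine to cytosine along the run. “Attacker” animal 1 (9 reads) was methylated at 60606668 and 60606676 and unmethylated at the following pair. “Attacker” animal 2 (16 reads) was methylated at 60606676 only, and “Father” animal 4 (13 reads) at 60606676 and 60606717. “Father” animal 1 (1 read) and “Mother” animal 5 (2 reads) were methylated at the inner cytosines and unmethylated at the outer ones. The 10 animals thus showed 6 different patterns, and animals of 1 group did not share a pattern that other groups lacked. “Attacker” animal 1, “Parental” animal 1, “Father” animals 2, 4 and 5 and “Mother” animal 5 had reads both in the run and at the leading CpG. “Father” animal 2 was fully methylated along the run and unmethylated at the leading CpG, while “Father” animal 5 was fully methylated at both.

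Below the gene, the 5 cytosines lay at -3.02 to -1.32 kb from the first annotated base. The gene table gives no strand or exons here, so neither end of the gene can be called its promoter. At 60569251 (12 animals), “Attacker” animal 5 had 12 of 21 reads methylated and animal 6 had 26 of 26. “Parental” animals 2, 3 and 6 had 37 of 43, 0 of 6 and 14 of 14, and “Father” animals 1, 2 and 5 had 35 of 35, 16 of 16 and 49 of 58. “Mother” animals 1, 2, 4 and 6 had 4 of 12, 17 of 33, 44 of 44 and 0 of 13. Every group held an animal at 100%, so the groups overlapped, and “Father” animals spread least. Group means were 78.6% ± 30.3 (SD, n = 2), 62.0% ± 54.2 (n = 3), 94.8% ± 8.96 (n = 3) and 46.2% ± 41.7 (n = 4) in the order “Attacker”, “Parental”, “Father”, “Mother”.

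At 60570553 (13 animals) most virgin males were low. “Attacker” animals 3, 5 and 6 had 0 of 12, 0 of 15 and 6 of 29 reads methylated, and “Parental” animals 2, 3, 4 and 5 had 0 of 1, 0 of 12, 24 of 44 and 0 of 12. “Father” animals 1, 2 and 3 had 21 of 45, 18 of 18 and 0 of 7, and “Mother” animals 1, 2 and 5 had 30 of 37, 14 of 34 and 0 of 38. The means were 6.90% ± 11.9 (SD, n = 3) in “Attacker”, 13.6% ± 27.3 (n = 4) in “Parental”, 48.9% ± 50.04 (n = 3) in “Father” and 40.8% ± 40.5 (n = 3) in “Mother”. Each group had at least 1 animal at 0%, and no comparison called this cytosine. Of the other 3 cytosines below the gene, 60569193 had 40 of 53 reads methylated in 4 animals, and 60570857 and 60570895 had 4 reads each in 3 animals. The cytosine just outside the window on this side, 60565173, had 1 read in 1 animal.

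**Figure D3:**
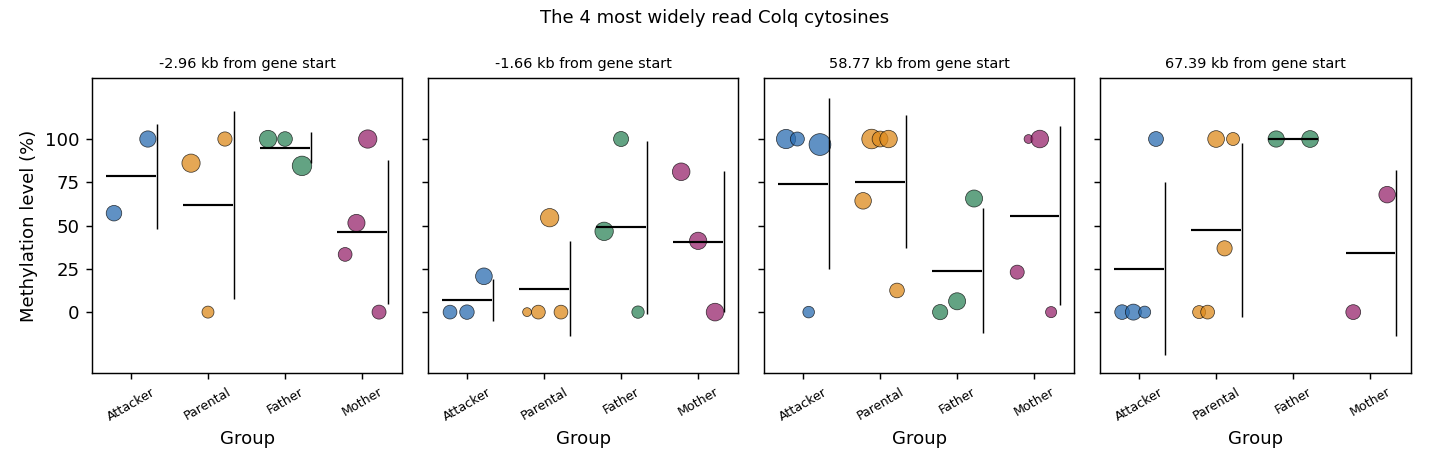
Each panel shows the level (vertical axis, %) of the animals with reads in each group (horizontal axis) at 1 of the 4 most widely read Colq cytosines, named by its distance from the first annotated base. Circles are animals sized by reads, horizontal lines are group means and vertical lines span 1 SD on either side of the mean, which can pass 0 or 100%. The groups overlap in 3 panels, and in the last (67.39 kb) both “Father” animals are at 100% together with 1 “Attacker” and 2 “Parental” animals.

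The first 17 kb of the gene held cytosines read in few animals, and most of them were methylated. Position 60575545, the first cytosine inside the gene, had 8 of 8 reads methylated in 1 “Father”, as did 60575562. The next fully methylated ones were 60577915, 60577927 and 60577940 (19 of 19 reads each in 1 “Attacker”), 60579344 (2 of 2), 60581941 (10 of 10) and 60582669 (6 of 6). At 14.7 kb, 60586915 and 60586922 were fully methylated in the 4 animals with reads. Their opposite-strand cytosines 60586916 and 60586923 were also fully methylated in 4 animals, of which only “Attacker” animal 6 was read on both strands. At 60589182, 66 of 66 reads were methylated in 2 animals. Unmethylated exceptions in this stretch were 60577806 (0 of 18 reads, 1 animal) and 60580561 (0 of 42 reads, 3 animals of different groups).

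A pair 45 bp long, 60579059 and 60579103, split within animals. “Attacker” animals 3, 5 and 6 had 0 of 13, 0 of 31 and 0 of 3 reads methylated at 60579059, and all of those reads were methylated at 60579103. “Attacker” animal 4 (1 read) and “Parental” animal 4 (10 reads) were methylated at both, and “Mother” animal 6 (4 reads) at neither. The fitted “Attacker” vs “Parental” difference at 60579059 was -67.5 percentage points (SE 33.0), with a single “Parental” animal behind it. Another pair behaved alike at 27.9 kb, where “Mother” animal 5 (15 reads) was methylated at 60600111 and unmethylated at 60600132, and “Mother” animal 6 (7 reads) was the reverse.

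Between 30.1 and 31.2 kb from the first annotated base lay 11 cytosines, and “Attacker” animal 6 had reads at all of them except 60602346. This animal was methylated at all 5 cytosines from 60603061 to 60603140 (8 reads each), where the only other animal, “Parental” animal 6, had 1 read that was methylated at 3 of them. At 60603295 and 60603333, “Parental” animals 2 and 4 had 16 and 18 reads, all methylated at both, while “Attacker” animal 6 had 7 of 7 and then 0 of 7. The other 4 were 60602345 (25 of 26 reads methylated, 4 animals), 60602346 (10 of 32, 2 animals), 60603403 (24 of 28, 5 animals) and 60603404 (33 of 35, 6 animals). At 60603403 “Attacker” animals 3, 5 and 6 had 4 of 4, 3 of 3 and 17 of 17 reads methylated. “Parental” animal 5 and “Mother” animal 5 had 0 of 2 each there.

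At 33.4 kb, 60605642 and 60605679 were read in the same 10 animals with equal depth. At 60605679 all 144 reads of the 10 animals were methylated. At 60605642, in the same stretch of 38 bp, the animals fell into both states. “Attacker” animals 4 and 5 had 0 of 18 and 0 of 14 there, and “Attacker” animal 6 had 2 of 2. “Parental” animals 1, 3, 4 and 5 had 16 of 16, 16 of 16, 15 of 15 and 13 of 13. “Father” animal 4 (19 of 19) and “Mother” animals 3 and 5 (16 of 16 and 15 of 15) were also fully methylated. Only 2 animals, both “Attacker”, were unmethylated, which is the opposite order to the leading CpG, and the fitted difference was -60.6 percentage points (SE 31.3). “Attacker” animal 5 was unmethylated here and fully methylated at the leading CpG, and “Parental” animals 1, 3 and 4 showed the reverse at both places.

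After the leading CpG no cytosine was listed for 22.2 kb, up to 60629043 (1 read, methylated). The 4 cytosines from 60629201 to 60629257 had reads in “Attacker” animal 4 (16 reads) and “Father” animal 5 (2 reads), and both were unmethylated at 60629253 and methylated at the other 3.

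At 58.8 kb, 60630986 and 60630987 are the cytosines of 1 CpG on opposite strands, and their levels followed different patterns. At 60630986, “Attacker” animals 4, 5 and 6 had 20 of 20, 18 of 18 and 15 of 15 reads methylated. “Parental” animals 1, 2, 3 and 6 had 0 of 21, 0 of 14, 4 of 4 and 0 of 19. “Father” animals 2, 4 and 5 had 1 of 1, 3 of 3 and 17 of 17, and “Mother” animals 3 and 6 had 0 of 2 and 0 of 6. All “Attacker” and “Father” animals were therefore at 100%, both “Mother” animals were at 0% and “Parental” animals held both states, with a fitted “Attacker” vs “Parental” difference of 59.1 percentage points (SE 26.4). The same 12 animals at 60630911, with equal depth, were all at 100% except “Mother” animal 6 (0 of 6). Beside it, 60630886 had 48 of 49 reads methylated in 3 animals, and 60630885 had 1 unmethylated read.

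The opposite-strand cytosine 60630987 was the most widely read of the gene (16 animals, 467 reads). “Attacker” animals 3, 4, 5 and 6 had 55 of 55, 13 of 13, 0 of 5 and 91 of 94 reads methylated. “Parental” animals 1, 3, 4, 5 and 6 had 18 of 28, 59 of 59, 23 of 23, 36 of 36 and 2 of 16. “Father” animals 2, 3 and 4 had 0 of 19, 2 of 32 and 21 of 32, and “Mother” animals 2, 4, 5 and 6 had 3 of 13, 1 of 1, 37 of 37 and 0 of 4. The “Father” animals were on average the lowest, and every group held animals under 25% so that the groups overlapped. The means were 74.2% ± 49.5 (SD, n = 4), 75.4% ± 38.4 (n = 5), 23.96% ± 36.2 (n = 3) and 55.8% ± 51.9 (n = 4) in the order “Attacker”, “Parental”, “Father”, “Mother”. No comparison called this cytosine. Between the strands of this CpG, “Attacker” animal 5 differed by 100 points (18 of 18 against 0 of 5), “Father” animal 2 by 100 points (1 of 1 against 0 of 19) and “Parental” animal 1 by 64.3 points (0 of 21 against 18 of 28). Over the gene, 7 CpGs had both cytosines listed, and 5 of them gave 16 animal values read on both strands. In 8 of these the strands had the same level, and in 4 they differed by more than 50 points, of which 3 are those just given and the last was “Parental” animal 6 at 60636891 and 60636892 (2 of 7 against 3 of 3).

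The far end of the gene had its own mixture. At 60631940 and 60631952 (6 animals) “Attacker” animals 3 and 6 were unmethylated at both (12 and 7 reads), “Parental” animal 3 and “Mother” animal 6 were methylated at both (6 and 8 reads), and “Father” animal 4 had 0 of 3 and then 3 of 3. “Mother” animal 2 had 0 of 26 and then 12 of 26. The 3 cytosines at 60632971, 60632990 and 60632995 were by contrast methylated in all 59 reads of 6 animals, drawn from all 4 groups. Levels were also high at 60636891 (45 of 50 reads, 6 animals) and 60636892 (31 of 34, 6 animals), and 60636771 and 60636796 had 5 of 5 reads each in 1 animal.

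At 60639603, 67.4 kb from the first annotated base, “Attacker” animals 2, 3, 4 and 6 had 0 of 16, 0 of 24, 0 of 6 and 17 of 17 reads methylated. “Parental” animals 1 to 5 had 0 of 9, 0 of 12, 29 of 29, 7 of 19 and 9 of 9. “Father” animals 1 and 4 had 26 of 26 and 30 of 30, and “Mother” animals 3 and 5 had 0 of 17 and 19 of 28. “Father” animals lay above both “Mother” animals, with only 2 animals on each side, and virgin males of both kinds held animals at 0% and at 100%. The means were 25% ± 50 (SD, n = 4), 47.4% ± 50.3 (n = 5), 100% (n = 2) and 33.9% ± 48.0 (n = 2). The last pair inside the gene, 60640131 and 60640161, was unmethylated in “Attacker” animals 1 and 5 (11 and 25 reads) and “Mother” animal 4 (31 reads) and methylated in “Mother” animal 2 (10 reads). “Parental” animal 3 (24 reads) was methylated at 60640131 only, and “Parental” animal 6 (6 reads) and “Mother” animal 5 (11 reads) at 60640161 only. No cytosine was listed in the 5 kb above the gene, and the first beyond it, 60648647, had 2 reads in 1 animal. The neighbouring annotated genes were LOC113456211, which ended 46894 bp below Colq, and Hacl1, an enzyme of fatty acid alpha-oxidation, which began 14118 bp above it.

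The values of Colq thus came mostly as all or none. Of the 173 animal values with at least 10 reads, 151 (87.3%) were at exactly 0% or 100%, with 106 at 100% and 45 at 0%. At 55 of the 64 cytosines no animal lay between 0 and 100%. At 29 of the 51 cytosines with reads in 2 or more animals, some animals were at 100% and others at 0%. At 28 cytosines every animal with reads was at 100%, 17 of these having 2 or more animals, and at 4 every animal was at 0%.

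To set this beside the whole table, cytosines with a mean level of 20 to 80% were taken, counting animals with at least 10 reads. At least 2 such animals were required, so the class of 1 to 4 animals given below holds no cytosine read in 1 animal only. Colq had 14 such cytosines, at which 82 values (81.2%) were at 0% or 100%, and the share over the table was 52.9%. The share over the table moved with the number of animals read, from 87.2% at cytosines read in 1 to 4 animals through 82.2% (5 to 9), 68.7% (10 to 16) and 46.1% (17 to 22) to 20.3% at cytosines read in all 23. In the class of 5 to 9 animals Colq had 16 of 17 values at 0% or 100% (94.1%), and in the class of 10 to 16 animals 66 of 84 (78.6%). These shares are descriptions, since values of neighbouring cytosines share reads. Among pairs of Colq cytosines 2 to 100 bp apart and read in the same animal, 109 of 117 (93.2%) had exactly the same number of reads, against 52.2% of such pairs in the table. In 37 of the 117 pairs 1 cytosine was at 0% and the other at 100%, and 34 of these had equal depth. The part of coverage in the all-or-none values was not tested.

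**Figure D4:**
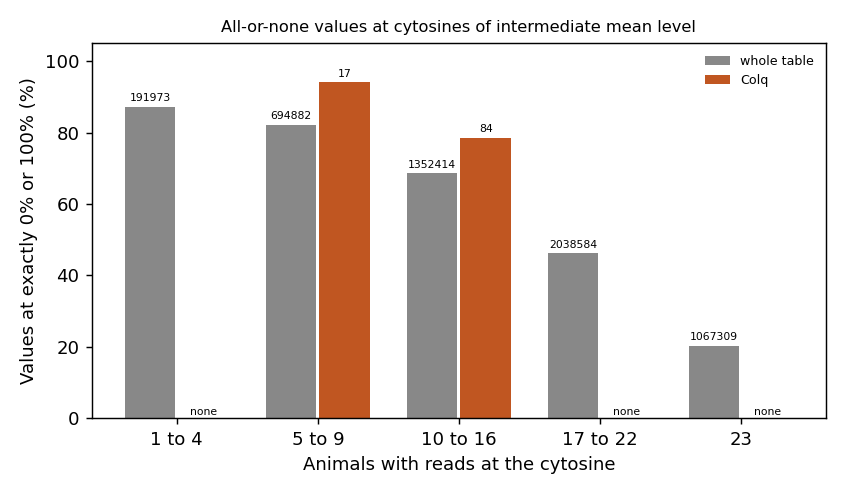
Bars give the share of animal values with at least 10 reads that were at exactly 0% or 100% (vertical axis, %) at cytosines with a mean level of 20 to 80%, by the number of animals with reads at the cytosine (horizontal axis), for the whole table and for Colq, with the number of values above each bar. Each cytosine needed at least 2 animals with 10 or more reads. The share of the whole table falls from 87.2 to 20.3% as more animals are read, and Colq has values in only 2 of the classes (94.1 and 78.6%).

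Averaged over all cytosines that an animal had reads at, the level of Colq did not separate the groups. The mean was 55.9% ± 22.4 (SD, n = 6, 23.6 to 80%) in “Attacker”, 63.1% ± 21.6 (n = 6, 28.0 to 82.6%) in “Parental”, 67.1% ± 36.4 (n = 5, 3.13 to 93.9%) in “Father” and 60.5% ± 19.9 (n = 6, 31.3 to 84.6%) in “Mother”. Each range overlapped with the others, and the group differences were -7.21 (“Attacker” minus “Parental”), -11.2 (“Attacker” minus “Father”), -3.97 (“Parental” minus “Father”) and 6.60 percentage points (“Father” minus “Mother”). Each was smaller than the SD between animals. “Parental” minus “Father” turned to 3.06 without “Parental” animal 1 and to 2.74 without “Father” animal 5, and “Father” minus “Mother” to -0.105 without “Father” animal 5. Without “Father” animal 3 the differences from “Father” were -27.2 (“Attacker”), -20.0 (“Parental”) and 22.6 points (“Father” minus “Mother”). Different animals were read at different cytosines, so this average also moves with which ones were read. The number read was 6 to 31 in “Attacker” (median 12), 6 to 19 in “Parental” (median 14.5), 2 to 19 in “Father” (median 16) and 6 to 16 in “Mother” (median 12.5). “Attacker” animal 6 stood apart, with 31 Colq cytosines, 507 Colq reads and a mean level over the whole table of 35.9% (15.3 to 28.0% in the other animals). “Father” animal 3 had 2 Colq cytosines and 39 reads.

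Differentially methylated CpGs (DMCs) were called from a beta-binomial Wald test fitted to the groups of each comparison at every cytosine with a read in both. A DMC is here a cytosine whose probability score for a difference over 15 percentage points is under 0.05. This departs from the study, which set thresholds on the Wald p and on the size of the difference, in a model designed over all groups. In “Attacker” vs “Parental”, 3 of 38 tested Colq cytosines were DMCs, and 0.733% of all tested cytosines were. Because Colq was chosen from this comparison nothing is read from that count. The 3 were 60579059, the leading CpG (fitted difference 89.6 points, SE 11.7) and 60630986. Of all tested cytosines 0.0164% were called after adjustment, and since the leading CpG was picked for its small p, its place among them (1 Colq cytosine) repeats the choice.

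In “Attacker” vs “Father”, 1 of 31 tested Colq cytosines was a DMC, and 0.905% of all tested cytosines were. It was 60606717 in the run beside the leading CpG, where “Attacker” animals 1 and 2 had 0 of 9 and 0 of 16 reads methylated and “Father” animals 1, 2, 4 and 5 had 0 of 1, 20 of 20, 13 of 13 and 21 of 21. The fitted difference was -76.3 points (SE 22.26, probability score 0.00294), and the Benjamini-Hochberg adjusted p of the beta-binomial Wald test was 0.617. The count was 3 without “Attacker” animal 5 or 6 or “Father” animal 4, and 2 without “Attacker” animal 1 or “Father” animal 2, 3 or 5. In “Parental” vs “Father”, 0 of 24 were DMCs by the probability score (1.12% of all tested), and the count was 2 without “Parental” animal 2 and 1 without “Parental” animal 3 or “Father” animal 2 or 4. In “Father” vs “Mother”, 2 of 27 were DMCs, and 1.1% of all tested cytosines were. They were 60606717, where “Mother” animals 5 and 6 had 0 of 2 and 0 of 9 (fitted difference 73.8 points, SE 25.5, probability score 0.0103), and 60630986 (76.2 points, SE 27.5, score 0.0125). The Benjamini-Hochberg adjusted p of the same Wald test was 1 for each, so neither passed the test over the table. Both calls were lost without “Mother” animal 6, and the count was 4 without “Mother” animal 5.

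Thinly read cytosines were called more often in general. Among cytosines read in 16 animals or fewer, like all of Colq, 1.58, 2.01, 2.55 and 2.5% were DMCs in the 4 comparisons, in the order given above. Well-covered cytosines, for which 4 or more animals per group had 10 or more reads, were DMCs in 0.0373, 0.0426, 0.0421 and 0.0546% of cases. The leading CpG was the only Colq cytosine in the well-covered class for “Attacker” vs “Parental”, and none was in that class for the other comparisons. After adjustment 0 Colq cytosines were called in each comparison with “Father”, where 0.0313, 0.052 and 0.0495% of all tested cytosines were. By an unadjusted Wald p under 0.05 with a difference over 15 points, the Colq counts were 3, 2, 1 and 2 in the same order of comparisons. An arcsine-link model of all 4 groups, with an unadjusted p under 0.05 and a difference of mean levels over 15 points, called 10 of 29, 6 of 23, 5 of 21 and 5 of 23. The share of the whole table called by either of these rules was not computed, so no excess at Colq is read from their counts.

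Colq was read beside 31 other genes of acetylcholine signalling and of the synaptic basal lamina, which comprised synthesis and transport (Chat, Slc18a3, Slc5a7), breakdown and anchoring (Ache, Bche, Prima1), nicotinic and muscarinic receptors, and partners at the junction such as Musk, Hspg2 (perlecan) and Dag1. Of these, 21 had tested cytosines, and 10 (Ache, Agrn, Chrm2, Chrm3, Chrm4, Chrm5, Chrnb2, Dok7, Lrp4 and Rapsn) were not analysed here. Each gene was taken with 5 kb on either side, as Colq was. The stretches of Slc18a3 and Chat overlap, as do those of Chrna5 and Chrna3 and of Chrna3 and Chrnb4. Totals of the list are sums over genes, so a cytosine in a shared stretch is counted for each gene. In “Attacker” vs “Parental”, 26 of 2603 tested cytosines were DMCs (0.999%), 13 higher in each group, in 11 genes. Of all tested cytosines, 0.451% were DMCs higher in “Attacker” and 0.282% were DMCs higher in “Parental”. In “Attacker” vs “Father” the count was 27 of 2579 (1.05%), with 17 higher in “Attacker” and 10 higher in “Father”, in 9 genes, beside 0.57 and 0.334% of the table in those directions. In “Parental” vs “Father” it was 28 of 2530 (1.11%), with 17 higher in “Parental” and 11 in “Father”, in 13 genes, beside 0.578 and 0.538%. In “Father” vs “Mother” it was 18 of 2492 (0.722%), with 8 higher in “Father” and 10 in “Mother”, in 9 genes, beside 0.608 and 0.493%. The median share over the genes was 0.465, 0, 0.641 and 0% in the same order, beside 0.733, 0.905, 1.12 and 1.1% of the whole table. The list is described by these counts and was not tested as a set.

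Several partners of Colq were read far more widely than Colq itself. Chat, the acetylcholine-synthesising enzyme, lies on the same chromosome (6, 60150749 to 60204780) and had 402 cytosines, 60 of them with at least 10 reads in all 23 animals. Slc18a3, the vesicular acetylcholine transporter, had 254 (50 at that depth), and Prima1, the membrane anchor of acetylcholinesterase, had 348 (36 at that depth). Bche, encoding butyrylcholinesterase, had 69 (0 at that depth). Among well-covered cytosines, 2 of 1312 in the list were DMCs in “Attacker” vs “Parental”, both in Chat, beside 0.0373% of the table. In “Attacker” vs “Father” 1 of 1192 was, in Chrna1, the alpha subunit of the muscle nicotinic receptor, beside 0.0426%. The last comparisons had 0 of 1245 (“Parental” vs “Father”) and 0 of 1237. After adjustment, 1 of the 2492 list cytosines tested in “Father” vs “Mother” was called, in Chrna7, beside 0.0495% of all tested cytosines, and 0 in the other comparisons. Chat, Chrna1 and Chrna7 are named here because they hold these few calls, and nothing about the genes is read from counts this small.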

How the data were processed

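A single RRBS library was made per animal from DG punches. Per the labels and the study's methods, the authors digested DNA with MspI, trimmed reads in the RRBS mode of Trim Galore, aligned them with Bismark on MicOch1.0 and extracted CpG calls. The deposited values are counts of total and methylated reads per cytosine, with strands listed separately. Groups came from sample titles. Depth was 64896224 to 129376223 calls per animal.

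The window, its cytosines and the gene list were chosen with earlier results of these data known. Levels are methylated over total reads. A beta-binomial Wald test after DSS was re-implemented (Python 3.11.15, numba 0.67.0) with 0.5 methylated of 1 read added and Benjamini-Hochberg adjustment over all tested cytosines. Each group had its own log-normal dispersion prior, from cytosines with over 10 reads in all animals of that group. The re-implemented test was tried on simulated data. Exact permutation tests were used for single values, and 95% Wilson intervals (scipy 1.17.1) for single and summed counts.

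By rule, the named cytosines were the leading CpG (well covered, groups not overlapping, smallest “Attacker” vs “Parental” p), its neighbours within 100 bp, well-covered DMCs and those nearest the gene start; the others are described to account for every member. A planned gene mean over deeply read cytosines, the 5 with the largest SD and the 5 genes most like Colq could not be computed at this depth, and the mean over read cytosines was added after seeing the data. No genome sequence was used here. Alternatives were read minimums, merged strands, an arcsine-link model, a replicate block and leaving out each animal.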

Additional observations from a re-analysis of the deposited data

Results flagged for a closer look

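In groups of 4 or 5 animals, 8 of 20 groups examined had 1 animal whose gap to the nearest other exceeded Dixon's 95% critical value. Normally distributed values exceed it in about 1 of 20 groups. These levels are mostly at 0% or 100%, where a single animal in the other state is enough to exceed it. The rate of 1 in 20 therefore gives no expected count here, and no excess is read from the 8. In “Attacker” voles, animal 4 was at 100% at 60579059, where the other 3 were at 0%, and this rested on 1 read. “Attacker” animal 5 was at 0% at 60630987 (5 reads), and “Attacker” animal 6 was at 100% at 60639603 (17 reads), where the other 3 were at 0%. In “Parental” voles, animal 4 was at 54.5% at 60570553 (44 reads) with the others at 0%, and animal 3 was at 100% at 60630986 (4 reads) with the others at 0%. In “Father” voles, animal 4 was at 0% at 60606685 (13 reads) and animal 1 at 0% at 60606717 (1 read), with the others at 100%. The mean level of Colq was 3.13% in “Father” animal 3, which had reads at 2 cytosines. The cause of these values was not tested.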

How the results depend on the processing

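The difference at the leading CpG between “Attacker” and “Parental” was 100 points in every setting (100 to 100 with an animal left out), which is fixed by the values: all animals were at 100% or 0% by group, none had fewer than 10 reads and no other strand was listed. It was 33.3 for “Attacker” vs “Father” (0 to 50 with an animal left out, 0 without “Father” animal 2), -66.7 for “Parental” vs “Father” (-100 to -50) and 66.7 for “Father” vs “Mother” (50 to 100), where a minimum of 5 reads left no “Mother” animal. DMC counts rested on few animals. In “Attacker” vs “Parental” the 3 DMCs became 1 with at least 10 reads in 4 animals a group (1 cytosine tested) and 10 under an arcsine-link model of all 4 groups, and 2 to 7 with an animal left out (7 without “Parental” animal 1, 6 without animal 5 or 6, 5 without animal 2 or 3). In “Attacker” vs “Father” the 1 DMC became 2 by Wald p, 0 with at least 5 reads in 3 or 10 reads in 4 animals (3 and 0 cytosines tested, the DMC not among them), 6 under the arcsine link, 2 with merged strands, and 1 to 3 with an animal left out (3 without “Attacker” animal 5 or 6 or “Father” animal 4, and 2 without “Attacker” animal 1 or “Father” animals 2, 3 or 5). In “Parental” vs “Father” the count of 0 became 1 by Wald p, 5 under the arcsine link, and 0 to 2 with an animal left out (2 without “Parental” animal 2, 1 without “Parental” animal 3 or “Father” animals 2 or 4). In “Father” vs “Mother” the 2 DMCs became 0 under either read minimum (2 and 0 cytosines tested, neither DMC among them), 5 under the arcsine link, 1 with merged strands, and 0 to 4 with an animal left out (0 without “Mother” animal 6, 4 without “Mother” animal 5). Counts of adjusted calls (1, 0, 0 and 0) were the same with merged strands. Over well-covered cytosines only, 1 Colq cytosine was tested in “Attacker” vs “Parental” and 0 in the other comparisons, so that setting shows nothing. Replicate numbers are shared by the groups. Group means were subtracted at each of 434480 cytosines and animals of compared groups were correlated. In “Attacker” vs “Parental”, same-numbered animals correlated at -0.0157 to 0.0521 and other pairs at -0.0549 to 0.0262. There 2 of 6 “Attacker” animals correlated best with their own number. In each comparison with “Father” the highest same-numbered pair lay below the highest other pair. Correlations were small throughout, and whether animals were paired by number cannot be told from them. Whole-table mean level was 15.3% in “Attacker” animal 1 and 35.9% in animal 6, and 18.7 and 25.5% in “Parental”. It was 19.3 and 25.2% in “Father” animals 1 and 5, and 18.5 and 21.3% in “Mother” animals 1 and 6. Median depth in these animals was 38 and 19, 26 and 22, 43 and 22, and 31 and 23 reads. The part of this order in the Colq values was not tested. With a replicate block, in an arcsine-link model that could be fitted to few cytosines, the counts were 2 of 10, 3 of 7, 2 of 7 and 2 of 3, beside 38, 31, 24 and 27 cytosines tested without it. Whole-table shares for the arcsine-link models and for the unadjusted Wald p were not computed, so no excess at Colq is read from those counts. The group difference in mean Colq level moved from -7.21 to between -14.2 and -0.746 with an animal left out (“Attacker” vs “Parental”), from -11.2 to between -27.2 and -4.47 (“Attacker” vs “Father”), from -3.97 to between -20.0 and 3.06 (“Parental” vs “Father”) and from 6.60 to between -0.105 and 22.6 (“Father” vs “Mother”, 22.6 without “Father” animal 3). The cause of these changes was not tested. Depth limits most Colq cytosines to a few animals a group.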
